A study of Homo sapiens with 6 samples.

Results

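IL1A, PTX3, LIF and the genes that feed and restrain NF-kB were followed in ovarian cancer cells before and after the acquisition of resistance to GDC0032. The group was set by a list of 10 symbols: IL1A, IL1B, CXCL8, CXCL1, LIF, PTX3, NFKBIA, TNFAIP3, NFKB2 and RELB. Of these 10 genes, 7 were found in the count table of 14646 genes, and all 7 passed the filter on low counts. IL1B, CXCL8 and CXCL1 have no entry in that table and are reported as not counted. The list was drawn up with the difference between the same 6 libraries already known, so the levels of the 7 genes are given as a description, without a p-value.

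IGROV1 is a human ovarian cancer cell line that carries a mutation in PIK3CA, which encodes a catalytic subunit of PI3K, and GDC0032 (taselisib) is a PI3K inhibitor that spares the beta isoform. IGROV1Res cells, labelled GDC0032-resistant, were derived from the parental line by long exposure to rising GDC0032 concentrations, so they are 1 resistant line from 1 parental line. IGROV1Sen cells, labelled GDC0032-sensitive, are that parental line, and each group had 3 RNA libraries. The titles of all 6 libraries also hold the letters UT with no explanation, while the methods describe cells given GDC0032 or DMSO before extraction, so the drug state at harvest is not certain.

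NF-kB is a family of dimeric transcription factors kept in the cytoplasm by IkB proteins. Signals from interleukin-1, TNF or bacterial products activate the IKK kinases, IkB is degraded, and RELA with the p50 product of NFKB1 enters the nucleus (the canonical route). In the slower non-canonical route, the kinase NIK (MAP3K14) leads to processing of NFKB2 to p52, which pairs with RELB. Many targets are cytokines and chemokines, others are inhibitors that end the signal, such as NFKBIA and TNFAIP3. In ovarian cancer, tumor cells are a known source of such cytokines.

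The libraries held 12808922 to 15241394 counts, and 3 counts correspond to 0.197 to 0.234 CPM (counts scaled by library size). A level near this value rests on very few molecules, and all limits of this kind cover counting error only. Mitochondrially encoded genes took 7.02%, 12.6% and 12.0% of counts in IGROV1Sen replicates 1, 2 and 3 and 12.8%, 10.1% and 6.94% in IGROV1Res replicates 1, 2 and 3. IGROV1Sen replicates 2 and 3 differed little (chi-square per degree of freedom 1.47), while the other pairs within a group gave 11.9 to 32.7. Whether replicates came from separate cultures is not in the labels, so the spread behind every p-value is that of these samples and may be technical. Of 10 epithelial and ovarian tumor markers, 6 were counted (PAX8, EPCAM, CDH1, KRT8, KRT18 and KRT19), with a summed level of 1370 to 1516 CPM in IGROV1Sen and 2005 to 2404 CPM in IGROV1Res, whereas MUC16, WT1, MSLN and ESR1 were not counted. None of 13 leukocyte markers was counted, PTPRC and CD14 included, and 7 of 11 fibroblast and endothelial markers were, with summed levels of 141 to 167 CPM and 212 to 227 CPM. The part of these shifts in the results was not tested. In bulk RNA, fewer cells that express a gene and less RNA per cell cannot be told apart.

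The promoters of these genes carry much of what is known of their control, and the stretches with NF-kB (kB) sites are shown for that reason. Windows of 250 bases before to 50 bases after each RefSeq start site were taken from the GRCh38.p14 promoter table, which held 8 of the 10 genes. LIF and RELB are not in that table. A match to the kB consensus on either strand occurred in 5 of the 8 genes and in 4 of the 5 that were counted, against 5.91% of 35116 windows. The genes with a match were PTX3, TNFAIP3, NFKB2, NFKBIA and CXCL1. NFKB2 had 3 windows and IL1A 2, so a gene with several windows had more chances to match. A looser form of the consensus, with its middle bases free, was found in 6 of the 8 genes and in 4 of the 5 that were counted, against 58.7% of all windows. Capitals mark kB consensus matches, and overlapping matches are merged.
PTX3 (chr3:157436600-157436788, plus strand): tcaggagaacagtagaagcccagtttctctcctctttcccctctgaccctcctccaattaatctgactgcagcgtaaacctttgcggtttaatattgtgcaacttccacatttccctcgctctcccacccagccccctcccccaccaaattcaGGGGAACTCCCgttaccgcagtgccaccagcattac
NFKBIA (chr14:35404750-35404999, minus strand): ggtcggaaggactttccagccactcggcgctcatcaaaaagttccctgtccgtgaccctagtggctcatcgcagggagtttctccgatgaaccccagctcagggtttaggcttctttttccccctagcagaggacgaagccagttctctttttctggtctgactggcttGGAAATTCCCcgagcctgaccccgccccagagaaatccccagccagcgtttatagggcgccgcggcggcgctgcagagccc
TNFAIP3 (chr6:137867188-137867217, plus strand): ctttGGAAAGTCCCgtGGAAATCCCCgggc
NFKB2, the second start (chr10:102394461-102394490, plus strand): gaaacgtcatGGGAATTCCCCcctccgggg
NFKB2, the second start (chr10:102394490-102394519, plus strand): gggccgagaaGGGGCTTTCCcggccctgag
NFKB2, the third start (chr10:102395674-102395703, plus strand): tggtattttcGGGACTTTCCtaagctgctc
The first 10 capitals of the first NFKB2 stretch form a palindrome, which reads as a match on each strand, and TNFAIP3 carries a pair of sites close together. These matches describe letters and are no evidence of binding in these cells.

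The windows of IL1A held no kB consensus match, nor did those of IL1B and CXCL8. IL1A did hold the AP-1 motif TGANTCA, a palindromic site bound by FOS and JUN proteins that occurs in 7.71% of all windows. The site 12 to 6 bases before the start is shown in capitals, from the minus strand, and a second match, TGAGTCA, lies at bases 38 to 44 after the start. The other IL1A window overlaps this one and holds the same pair.
IL1A (chr2:112784488-112784517, minus strand): ggcgaagaagacTGACTCAggcttaagctg
Among the 8 genes, AP-1 was matched in 2, IL1A and CXCL8. No match says only that these letters are not in this window.

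The libraries of IGROV1Res held much more IL1A RNA than those of IGROV1Sen, and PTX3 was close to undetected in IGROV1Sen and present in every IGROV1Res library. LIF and TNFAIP3 were about 2.27-fold and 1.94-fold higher in IGROV1Res, NFKB2 was 1.47-fold higher, and NFKBIA was lower (0.699 of the IGROV1Sen level). RELB had a higher mean in IGROV1Res but its groups overlapped. Of the 7 genes, 5 were called higher at an adjusted p under 0.05 in edgeR's quasi-likelihood test, where 17.4% of the 13791 genes tested were called higher. NFKBIA was the 1 gene called lower (18.3% of all genes), and 35.7% of all genes were called in either direction. Every IGROV1Res library lay above every IGROV1Sen library for 5 of the 7 (23.4% of all genes) and below for 1 (24.5%), and 47.8% of all genes did not overlap. Since the list was chosen on this difference, nothing is read from these counts. The median log2 fold change of the 7 was 0.96, and that of all genes was -0.01.

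**Figure D1:**
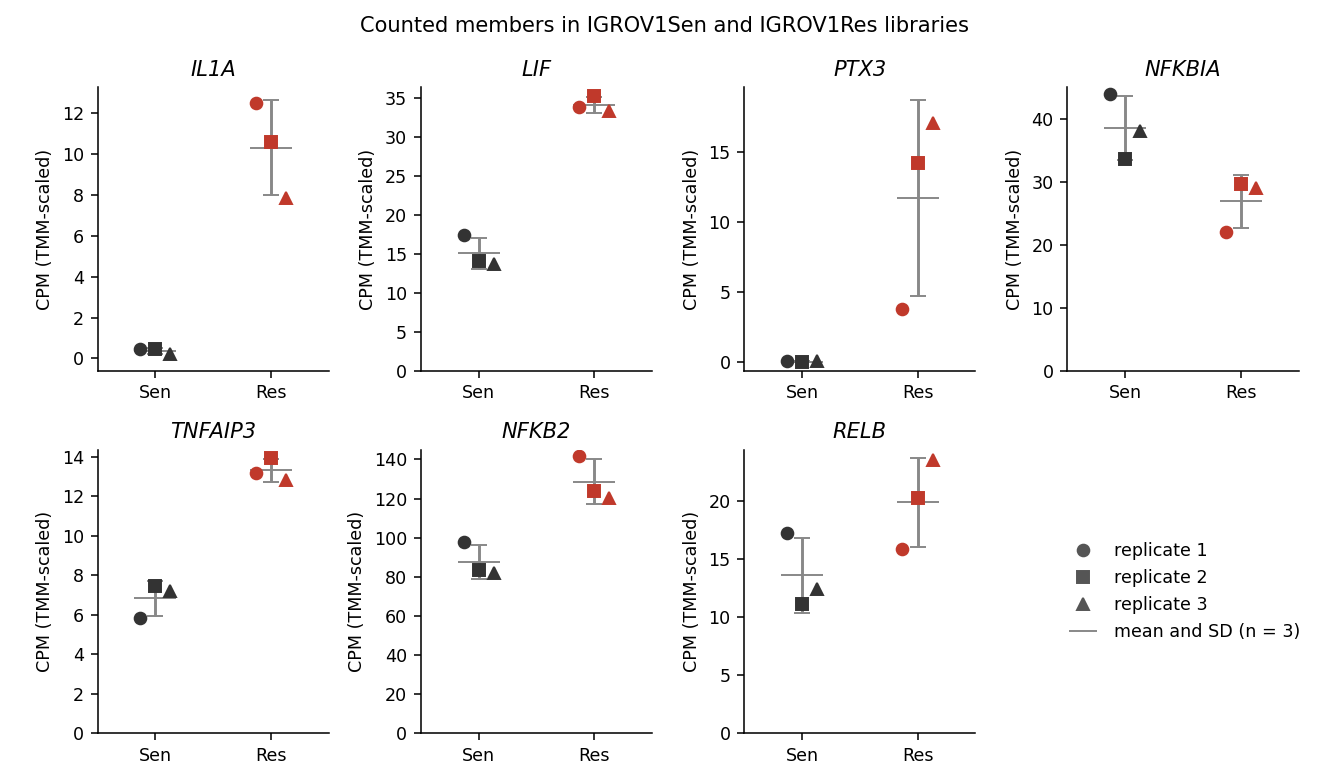
Level of each of the 7 counted genes in CPM (TMM-scaled, linear axis) in the 3 IGROV1Sen (Sen) and 3 IGROV1Res (Res) libraries, with the mean and SD of each group as lines and the replicate number as the symbol. IL1A and PTX3 lie near 0 in IGROV1Sen, NFKBIA is lower in IGROV1Res, and only RELB has overlapping groups.

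IL1A encodes interleukin-1 alpha, a cytokine that is active as its precursor, acts as an alarm signal when cells are damaged, and signals through the receptor IL1R1. The gene (ENSG00000115008, chr2:112773915-112784590, minus strand, GRCh38) had 6, 7 and 3 counts in IGROV1Sen replicates 1, 2 and 3 and 171, 151 and 112 counts in IGROV1Res replicates 1, 2 and 3. These are 0.472, 0.462 and 0.210 CPM and 12.5, 10.6 and 7.85 CPM. The IGROV1Sen libraries were thus at or just above the level of 3 counts, and the lowest IGROV1Res library was 16.6-fold above the highest IGROV1Sen library. The mean rose from 0.381 ± 0.148 to 10.3 ± 2.34 CPM (SD, n = 3), a log2 fold change of 4.73 (SE 0.32), or 26.5-fold. Within IGROV1Res the highest and lowest libraries differed by 1.59-fold, much less than the groups did.

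LIF encodes leukemia inhibitory factor, an IL-6 family cytokine that acts through LIFR and IL6ST on JAK and STAT3. LIF (ENSG00000128342, chr22:30240447-30246851, minus strand) had 221, 212 and 196 counts in IGROV1Sen and 463, 503 and 475 counts in IGROV1Res. In CPM these were 17.4, 14.01 and 13.7 against 33.8, 35.2 and 33.3, so the groups were separate and IGROV1Res varied by only 1.06-fold. The mean went from 15.04 ± 2.03 to 34.1 ± 1.01 CPM, a log2 fold change of 1.18 (SE 0.12). LIF overlaps the antisense transcript MGC20647 (AC004264.1), with 175 of 3969 exonic bases in common. That transcript had 9, 4 and 9 counts in IGROV1Sen and 26, 21 and 13 in IGROV1Res (log2 fold change 1.42, SE 0.43, adjusted p = 0.0301). LIF also overlaps LIF-AS1, which was not counted. The counts of MGC20647 are small beside those of LIF, and since the strand setting of the counting is not given in the sources used here, reads from the shared bases cannot be told apart.

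PTX3 encodes pentraxin 3, a secreted pattern recognition protein of innate immunity that binds microbes and complement components and is induced by interleukin-1 and TNF. PTX3 (ENSG00000163661, chr3:157436789-157443628, plus strand) had 1, 0 and 1 counts in IGROV1Sen replicates 1, 2 and 3 and 52, 203 and 244 counts in IGROV1Res replicates 1, 2 and 3. The IGROV1Sen libraries were below the level of 3 counts, and the levels in IGROV1Res were 3.80, 14.2 and 17.1 CPM. Over the groups, 2 counts stood against 499, a ratio of 249 at equal depth with a 95% counting interval of 68.5 to 2060. Replicate 1 was far below the other IGROV1Res libraries, which gave PTX3 the widest spread within IGROV1Res of the 7 genes (4.50-fold), and a mean of 11.7 ± 6.99 CPM. PTX3 lies inside VEPH1, a gene on the opposite strand, and shares 71 of its 1940 exonic bases with it. VEPH1 had 14, 17 and 21 counts in IGROV1Sen and 54, 114 and 118 in IGROV1Res (log2 fold change 2.44, SE 0.33, adjusted p = 0.000497). In VEPH1, too, IGROV1Res replicate 1 was the lowest of its group, and the share of reads that the genes have in common was not measured.

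NFKBIA encodes IkB alpha, the inhibitor that holds RELA dimers in the cytoplasm and is itself a rapid NF-kB target. NFKBIA (ENSG00000100906, chr14:35401511-35404749, minus strand) had 560, 511 and 544 counts in IGROV1Sen and 302, 425 and 415 counts in IGROV1Res. The levels were 44.0, 33.8 and 38.1 CPM in IGROV1Sen and 22.1, 29.8 and 29.1 CPM in IGROV1Res. All IGROV1Res libraries were lower, but the gap between the nearest libraries was small (33.8 against 29.8 CPM). The mean fell from 38.6 ± 5.16 to 27.0 ± 4.26 CPM, a log2 fold change of -0.52 (SE 0.14). NFKBIA was the only counted gene of the list with a negative log2 fold change. Its call was lost without IGROV1Sen replicate 3, where the log2 fold change was -0.53.

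TNFAIP3 encodes A20, a ubiquitin-editing enzyme that turns off signaling between TNF or interleukin-1 receptors and IKK. TNFAIP3 (ENSG00000118503, chr6:137867188-137883312, plus strand) had 74, 113 and 103 counts in IGROV1Sen and 180, 199 and 183 counts in IGROV1Res. The CPM values were 5.82, 7.47 and 7.22 against 13.2, 13.9 and 12.8, with a clear gap. An antisense transcript that overlaps it, AL357060.1, was not counted. The mean rose from 6.83 ± 0.888 to 13.3 ± 0.575 CPM, a log2 fold change of 0.96 (SE 0.15). Both feedback inhibitors have kB sites in their promoter windows, as shown in the sequences of NFKBIA and TNFAIP3, and their log2 fold changes had opposite signs.

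NFKB2 encodes p100, which is both an inhibitor and the precursor of the p52 subunit. NFKB2 (ENSG00000077150, chr10:102394110-102402529, plus strand) had 1243, 1264 and 1166 counts in IGROV1Sen and 1940, 1767 and 1715 counts in IGROV1Res. The levels were 97.7, 83.5 and 81.7 CPM and 142, 124 and 120.1 CPM, without overlap. The mean rose from 87.6 ± 8.79 to 129 ± 11.6 CPM, a log2 fold change of 0.55 (SE 0.10).

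RELB encodes the partner of p52 in the non-canonical route. RELB (ENSG00000104856, chr19:45001430-45038198, plus strand) had 220, 169 and 177 counts in IGROV1Sen and 217, 290 and 336 counts in IGROV1Res. Replicate 1 set both groups apart from their other libraries: it was the highest IGROV1Sen library at 17.3 CPM (others 11.2 and 12.4) and the lowest IGROV1Res library at 15.9 CPM (others 20.3 and 23.5). The means were 13.6 ± 3.24 and 19.9 ± 3.86 CPM, a log2 fold change of 0.55 (SE 0.20), the same size as that of NFKB2 with a larger error. RELB was not called in the comparison of all 6 libraries. Without IGROV1Sen replicate 1 the log2 fold change was 0.76, without IGROV1Res replicate 1 it was 0.69, and RELB was called in each case. Those are the libraries that make the groups overlap, and RELB was listed with this difference known, so nothing is read from these calls. RELB was not called without IGROV1Sen replicate 2 (0.42) or 3 (0.49), or without IGROV1Res replicate 2 (0.54) or 3 (0.42).

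The libraries that stood apart within a group differed from gene to gene. On the log2 scale, IGROV1Res replicate 1 was 1.35 below its group mean for PTX3, 0.31 below for RELB and 0.28 below for NFKBIA, yet 0.30 above for IL1A and 0.14 above for NFKB2. LIF and TNFAIP3 stayed within 0.05 and 0.07 of their mean in all 3 IGROV1Res libraries. In IGROV1Sen, replicate 1 was the highest library for RELB (0.37 above its group mean), LIF (0.22), NFKBIA (0.20) and NFKB2 (0.16), and the lowest for TNFAIP3 (0.22 below). IL1A and PTX3 deviated widely in IGROV1Sen, where they had 0 to 7 counts a library.

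**Figure D2:**
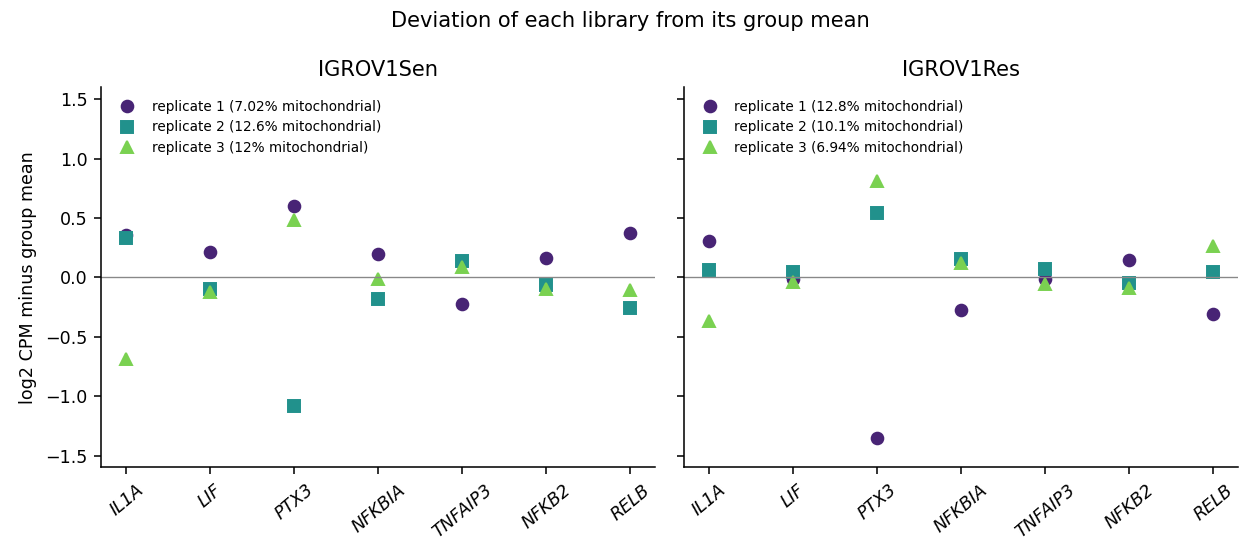
Deviation of each library from its group mean in log2 CPM for the 7 counted genes, IGROV1Sen on the left and IGROV1Res on the right, with the share of mitochondrially encoded counts of each library in the legend. LIF and TNFAIP3 are the tightest in IGROV1Res, and PTX3 in IGROV1Res replicate 1 lies 1.35 below its mean.

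The share of mitochondrially encoded counts varied within the groups more than between them (means of 10.5 ± 3.07% and 9.93 ± 2.91%), so libraries with like shares can be set side by side. IGROV1Sen replicate 1 (7.02%) and IGROV1Res replicate 3 (6.94%) had RELB at 17.3 and 23.5 CPM, NFKBIA at 44.0 and 29.1 CPM, IL1A at 0.472 and 7.85 CPM and PTX3 at 0.0786 and 17.1 CPM. IGROV1Sen replicates 2 and 3 (12.6% and 12.0%) and IGROV1Res replicate 1 (12.8%) had RELB at 11.2, 12.4 and 15.9 CPM and NFKBIA at 33.8, 38.1 and 22.1 CPM. In both sets RELB was higher and NFKBIA lower in IGROV1Res. Each set holds only 1 IGROV1Res library, so this says little, and the RELB groups overlap over all 6 libraries. IGROV1Res replicate 2 (10.1%) was in neither set. With IGROV1Sen replicate 1 and IGROV1Res replicate 3 both left out, the log2 fold change of RELB was 0.62 and that of NFKBIA was -0.47. These sets hold 1 to 2 libraries a group and were not tested.

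Neighboring genes were examined to see whether a change spread over the locus. Within 500 kb of IL1A on chromosome 2, 10 genes were tested and 7 of them were called, where 35.7% of all genes were called. IL36G, another interleukin-1 family gene 188613 bases away, differed by 3.40 on the log2 scale (adjusted p = 0.000793), on 1, 1 and 2 counts in IGROV1Sen and 14, 20 and 12 counts in IGROV1Res. CKAP2L (0.59), PSD4 (0.69), CHCHD5 (0.53), SLC20A1 (0.42) and POLR1B (0.34) also rose, and ZC3H6 fell (-1.26). PAX8, a marker of the ovarian epithelial lineage in the same window, had a log2 fold change of -0.02. The median of the 10 was 0.38, against 0.05 for chromosome 2. IL1B lies in the same cluster and was not counted.

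Around the other genes, calls went in both directions, where 17.4% of all genes were called higher and 18.3% lower. Each count rests on few genes, and whether neighbors differ from all genes was not tested. Near LIF, 6 of 19 tested neighbors were called higher and 1 lower (median 0.11), and near RELB 9 of 25 were called higher and 3 lower (median 0.10), with APOE as the extreme at 3.35. Near NFKB2, 2 of 21 were called higher (PITX3 at 1.62 and SFXN2 at 0.29) and 5 lower. The median of the 21 was -0.16 against -0.17 for chromosome 10, and NFKB2 itself was at 0.55. Near NFKBIA, 2 of 7 were called lower, with a median of -0.38 against -0.21 for chromosome 14. NFKBIA at -0.52 was below all 7, which ranged from -0.49 (KIAA0391) to 0.20 (PSMA6), with 3 of them above 0. PTX3 and TNFAIP3 had 2 tested neighbors each, of which VEPH1 and ARFGEF3, respectively, were called higher (log2 fold changes 2.44 and 0.66).

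**Figure D3:**
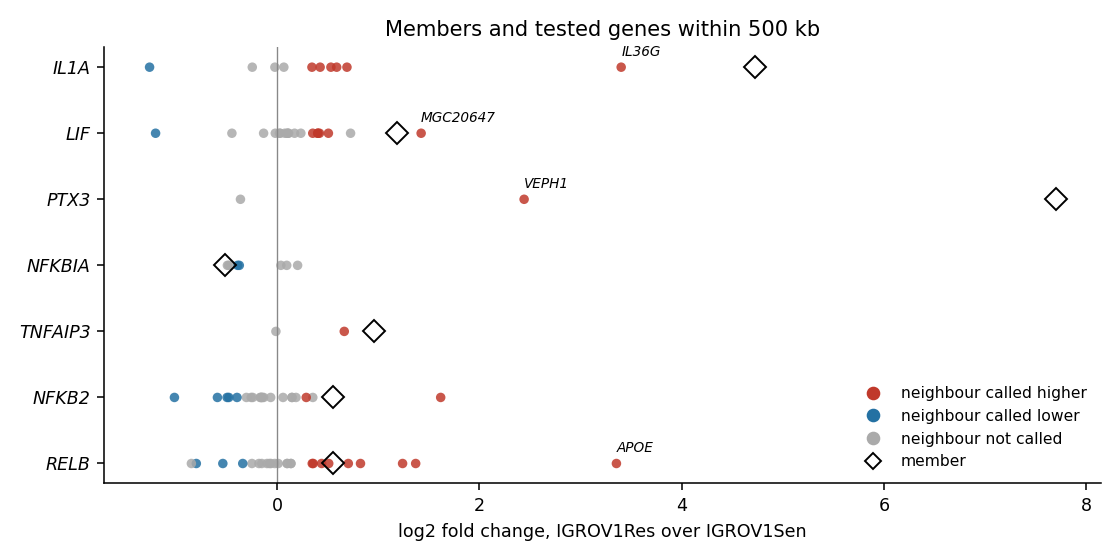
Log2 fold change, IGROV1Res over IGROV1Sen, of each counted gene (open diamond) and of the tested genes within 500 kb (circles, red called higher, blue called lower, gray not called). IL1A at 4.73 lies beyond all its neighbors, of which IL36G is nearest at 3.40, and NFKBIA at -0.52 lies just below the lowest of its own (KIAA0391, -0.49). The position of PTX3 at 7.70 depends on the small count added in the fit.

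By the distance between log2 CPM profiles over the 6 libraries, each centered on its mean, the genes most like IL1A were TM4SF18 (distance 0.732), SLC5A5 (0.834), GH2 (1.02), SERPING1 (1.02) and CNKSR2 (1.09). GH2 belongs to a cluster of near-identical growth hormone genes and its counts are uncertain. SLC5A5 is the sodium iodide symporter and SERPING1 encodes the inhibitor of complement C1. The genes most like PTX3 were TMEM40 (1.46), CALB2 (1.62), COL12A1 (1.91), CNN1 (2.11) and SPARC (2.17). CALB2 encodes calretinin, a calcium-binding protein used as a marker of mesothelium, COL12A1 and SPARC encode matrix proteins and CNN1 encodes a smooth muscle calponin. All 10 had log2 fold changes of at least 4.37. This follows from the search, since the step between the groups makes up most of the IL1A and PTX3 profiles. The listed genes themselves were left out of the search, and the likeness rests on 6 libraries.

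The rest of the pathway was read from 10 lists of other genes with 170 entries, of which 120 were counted and 115 tested. Of these, 35 rose (30.4%, against 17.4% of all genes), 17 fell (14.8%, against 18.3%) and 63 were not called. The median log2 fold change was 0.11, against -0.01 over all genes. The lists were written with earlier results of these data known, so nothing is read from how they differ from all genes. The libraries of both groups were fully separate for 67 of the 115, with IGROV1Res higher in 43 and lower in 24. Over all genes, 47.8% were fully separate, with IGROV1Res higher in 23.4% and lower in 24.5%. Calls refer to edgeR's quasi-likelihood test with Benjamini-Hochberg adjustment over all 13791 genes.

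**Figure D4:**
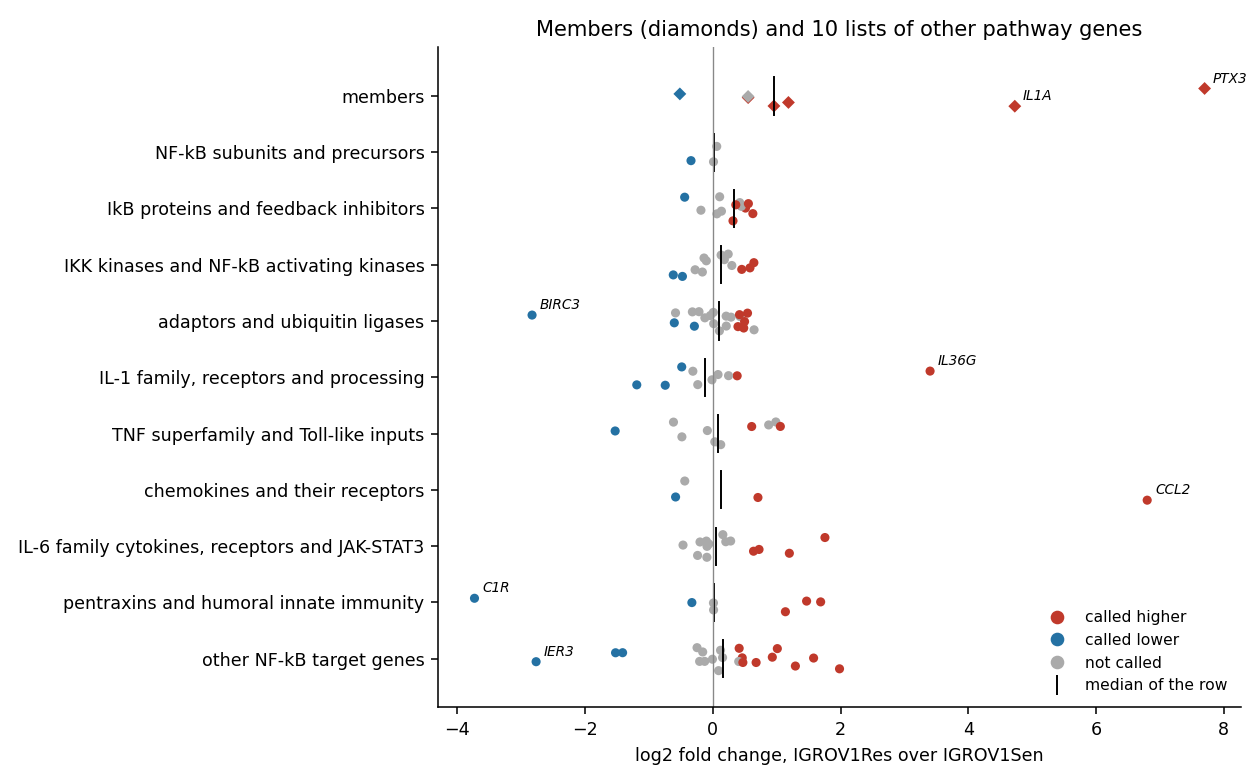
Log2 fold change, IGROV1Res over IGROV1Sen, of the 7 counted genes (diamonds) and of 115 tested genes in 10 other pathway lists (circles), with the median of each row as a black line. Red marks genes called higher, blue genes called lower and gray genes not called. PTX3, CCL2, IL1A and IL36G lie furthest to the right, and C1R, BIRC3 and IER3 furthest to the left.

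Of the 3 NF-kB subunit genes outside the list, NFKB1 fell and RELA and REL were not called. NFKB1, the precursor of p50, fell from 60.1 ± 4.41 to 47.4 ± 2.09 CPM (log2 fold change -0.34, SE 0.09, adjusted p = 0.0136). Its adjusted p was 0.0590 without IGROV1Sen replicate 3 and 0.0648 without IGROV1Res replicate 2. RELA, the main activating subunit, had 109 ± 1.53 and 110.2 ± 7.93 CPM (log2 fold change 0.01, SE 0.08, adjusted p = 0.931), and REL had 0.06 (SE 0.12, adjusted p = 0.715). NFKB2 and NFKB1, which encode the precursors p100 and p105, thus had log2 fold changes of 0.55 and -0.34.

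Of 12 IkB proteins and feedback inhibitors beside NFKBIA and TNFAIP3, 5 rose, 1 fell and 6 were not called (median 0.34). TNIP1, an A20-binding inhibitor, rose from 83.7 ± 15.3 to 129 ± 22.4 CPM (log2 fold change 0.63, adjusted p = 0.0119, or 0.0512 without IGROV1Res replicate 2). TAX1BP1, an adaptor of A20, had a log2 fold change of 0.56 (SE 0.09, adjusted p = 0.00131), and CYLD, a deubiquitinase, 0.51 (SE 0.11, adjusted p = 0.00562). OTULIN and TNIP2 were the other genes that rose. The gene that fell was NFKBIZ, a nuclear IkB protein that takes part in transcription of secondary targets (log2 fold change -0.44, SE 0.11, adjusted p = 0.0147). Its adjusted p was 0.0669 without IGROV1Sen replicate 2 and 0.0532 without IGROV1Res replicate 3.

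Of 13 kinases and kinase partners of IKK, 3 rose, 2 fell and 8 were not called (median 0.13). IKBKB, the kinase of the canonical route, had 49.7 ± 5.37 and 68.1 ± 3.54 CPM (log2 fold change 0.45, SE 0.10, adjusted p = 0.00600). RIPK2, a kinase downstream of NOD receptors, had 263 ± 36.5 and 393 ± 25.3 CPM (log2 fold change 0.58, adjusted p = 0.00281). Both lie on chromosome 8, whose 457 tested genes had a median log2 fold change of 0.39, the highest of the numbered chromosomes. IKBKG, the regulatory subunit NEMO, rose by 0.64 (SE 0.17, adjusted p = 0.0145), with adjusted p = 0.0583 and 0.0562 without IGROV1Sen replicates 2 and 3. TAB1, an activator of TAK1, fell (log2 fold change -0.62, SE 0.09, adjusted p = 0.000543), as did MAP3K8, a kinase that links IKK to ERK (-0.48, SE 0.12, adjusted p = 0.0112). MAP3K14, the NIK kinase of the non-canonical route, had a log2 fold change of 0.30 (SE 0.11, adjusted p = 0.0682). It passed the threshold without IGROV1Sen replicate 1 (0.0430) and without IGROV1Res replicate 2 (0.0209).

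Of 21 adaptors and ubiquitin ligases, 5 rose, 3 fell and 13 were not called (median 0.10). BIRC3, an inhibitor of apoptosis that marks NIK for degradation and is a common NF-kB target, had 27, 25 and 21 counts in IGROV1Sen and 6, 2 and 2 counts in IGROV1Res. All IGROV1Res libraries were below all IGROV1Sen libraries (log2 fold change -2.83, SE 0.44, adjusted p = 0.00110), although the highest level was 2.12 CPM. PELI1, a ubiquitin ligase that acts on IRAK1, differed by 0.54 on the log2 scale (adjusted p = 0.00328), and IRAK1, a kinase of interleukin-1 and Toll-like receptors, 0.48 (adjusted p = 0.00962). TRADD, the adaptor of TNF receptors, had 0.50 (adjusted p = 0.00917). PELI2 fell (-0.60, adjusted p = 0.00486). TRAF3, which works with BIRC3 against NIK, had -0.29 (adjusted p = 0.0377), and its call was lost on leaving out any library but IGROV1Res replicate 3 (adjusted p of 0.0656 to 0.147) and in DESeq2 (0.0535).

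IL1R1, the receptor of IL1A, was lower in IGROV1Res. Of 12 counted genes of the interleukin-1 family, its receptors and its processing, 10 were tested, 2 rose, 3 fell and 5 were not called (median -0.12). IL1R1 had 65.3, 55.6 and 59.5 CPM in IGROV1Sen and 18.6, 33.5 and 26.8 CPM in IGROV1Res. The highest IGROV1Res library was well below the lowest IGROV1Sen library, and the mean fell from 60.1 ± 4.88 to 26.3 ± 7.48 CPM (log2 fold change -1.19, SE 0.18, adjusted p = 0.000918). IL1R2, the decoy receptor, had 4.004 ± 0.782 and 2.38 ± 0.555 CPM (log2 fold change -0.75, SE 0.26, adjusted p = 0.0471), and its adjusted p was 0.0571 to 0.177 without any library other than IGROV1Sen replicate 3 and 0.0688 in DESeq2. IL1RAP, the co-receptor, had a log2 fold change of -0.31 (SE 0.20, adjusted p = 0.267), and the antagonist IL1RN was not counted. S100A13, which takes part in release of IL1A, fell (-0.49, SE 0.11, adjusted p = 0.00898). HAX1, an intracellular binding partner of IL1A, rose by 0.38 (adjusted p = 0.0161), a call lost without IGROV1Sen replicate 2 (0.0709), IGROV1Sen replicate 3 (0.0742) or IGROV1Res replicate 3 (0.0576).

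Of 10 tested genes of the TNF superfamily and Toll-like inputs, 2 rose, 1 fell and 7 were not called (median 0.08). TNFRSF12A, the receptor of TWEAK and an input to the non-canonical route, rose from 165 ± 41.1 to 344 ± 31.4 CPM (log2 fold change 1.06, SE 0.16, adjusted p = 0.000843). TNFRSF11A, the receptor RANK, rose by 0.61 (adjusted p = 0.0167), with adjusted p of 0.0643, 0.0625 and 0.0605 without IGROV1Sen replicate 2, IGROV1Sen replicate 3 and IGROV1Res replicate 2. TLR5, the flagellin receptor, fell (-1.53, SE 0.25, adjusted p = 0.00140). TNF itself had 38, 23 and 26 counts in IGROV1Sen and 28, 84 and 64 counts in IGROV1Res (log2 fold change 0.99, SE 0.40, adjusted p = 0.0811). IGROV1Res replicate 1 lay inside the IGROV1Sen range, and the adjusted p was 0.0324 without IGROV1Sen replicate 1, 0.0128 without IGROV1Res replicate 1 and 0.0474 in edgeR's likelihood ratio test.

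Most chemokines were not counted: only 4 of 16 listed genes had counts, and CXCL2 and CXCL3 were absent beside CXCL8 and CXCL1. CCL2, the monocyte chemoattractant, had 0, 1 and 0 counts in IGROV1Sen and 22, 60 and 72 counts in IGROV1Res, so 1 count stood against 154 (ratio 154 at equal depth, 95% counting interval 27.2 to 6106, adjusted p = 0.000265). As with PTX3, IGROV1Res replicate 1 was the lowest of its group. CX3CL1, a membrane-bound chemokine, rose by 0.71 (SE 0.13, adjusted p = 0.00253), and CXCL16 fell (-0.58, SE 0.14, adjusted p = 0.0108, or 0.0587 without IGROV1Sen replicate 2). CXCR4 was not called.

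Of 14 tested genes of the IL-6 family and JAK-STAT3 signaling, through which LIF acts, 4 rose and 10 were not called (median 0.05). The receptor pair of LIF was not called in the quasi-likelihood test: LIFR had 129 ± 37.2 and 93.3 ± 13.3 CPM (log2 fold change -0.47, SE 0.18, adjusted p = 0.0762), and IL6ST had 84.4 ± 8.12 and 94.1 ± 2.62 CPM (0.16, SE 0.09, adjusted p = 0.199). Without IGROV1Sen replicate 1, IL6ST differed by 0.24 on the log2 scale (adjusted p = 0.0347). LIFR passed over all 6 libraries in edgeR's likelihood ratio test (adjusted p = 0.0410) and in DESeq2 (adjusted p = 0.0395), and with IGROV1Sen replicate 1 and IGROV1Res replicate 3 both left out (-0.33, adjusted p = 0.00627). With only IGROV1Sen replicate 1 left out, LIFR had -0.20 (adjusted p = 0.176 in the quasi-likelihood test). That library had 172 CPM of LIFR, against 107 and 108 in IGROV1Sen replicates 2 and 3. JAK2 rose from 11.9 ± 1.10 to 27.3 ± 4.29 CPM (1.20, SE 0.14, adjusted p = 0.000236), and IL6R, the receptor of IL-6, from 5.06 ± 0.908 to 17.2 ± 6.30 CPM (1.76, SE 0.26, adjusted p = 0.000863). SOCS3, a feedback inhibitor induced by STAT3, rose from 107 ± 28.3 to 177 ± 12.9 CPM (0.72, SE 0.16, adjusted p = 0.00692). CTF1 was the other gene that rose (0.64, adjusted p = 0.0407). STAT3 (-0.06, adjusted p = 0.665), JAK1 (0.28, adjusted p = 0.306) and TYK2 (-0.20, adjusted p = 0.217) were not called in the quasi-likelihood test. IL6 had 3, 0 and 2 counts in IGROV1Sen and 12, 3 and 6 in IGROV1Res and was not tested.

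Beside PTX3, 8 genes of the pentraxin and complement list were counted and 7 tested, of which 3 rose and 2 fell (median 0.01). C1R and C1S encode the partner proteases of the C1 complex, to whose C1q component PTX3 binds. C1S had 13, 18 and 15 counts in IGROV1Sen and 57, 44 and 48 counts in IGROV1Res (log2 fold change 1.69, SE 0.25, adjusted p = 0.000762). C1R had 156, 181 and 184 counts in IGROV1Sen and 11, 11 and 17 counts in IGROV1Res (-3.73, SE 0.21, adjusted p = 2.72e-06). The pair thus moved in opposite directions, each without overlap. C3, the central complement protein, rose by 1.47 (SE 0.25, adjusted p = 0.00167), and CFI, which inactivates C3b, by 1.14 (SE 0.26, adjusted p = 0.00821). CD59, which protects cells from complement, fell (-0.33, adjusted p = 0.0307), a call lost without IGROV1Sen replicate 1 or 3 or IGROV1Res replicate 1 or 2 (adjusted p of 0.0571 to 0.117).

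Of 21 tested other NF-kB targets, 9 rose, 3 fell and 9 were not called (median 0.15), and ICAM1 was not counted. CSF1, the growth factor of macrophages, had 69.4, 48.0 and 40.8 CPM in IGROV1Sen and 139, 161 and 172 CPM in IGROV1Res (log2 fold change 1.58, SE 0.18, adjusted p = 0.000178). PSMB9, an immunoproteasome subunit that is also induced by interferon, had 60, 29 and 28 counts and 79, 182 and 214 counts (1.98, SE 0.42, adjusted p = 0.00560). EBI3, a cytokine subunit, rose by 1.29 (SE 0.26, adjusted p = 0.00388). IER3, an early response gene, had 273, 363 and 312 counts in IGROV1Sen and 43, 52 and 44 in IGROV1Res (-2.77, SE 0.14, adjusted p = 1.60e-06). TNFAIP2 fell from 457 ± 49.9 to 172 ± 9.85 CPM (-1.41, SE 0.10, adjusted p = 1.02e-05) and EFNA1, an ephrin ligand, from 8.85 ± 1.07 to 3.08 ± 0.189 CPM (-1.52, SE 0.18, adjusted p = 0.000210). Of the NF-kB targets named here, PTX3, CCL2 and IL1A had the highest log2 fold changes and BIRC3 and IER3 the lowest. PTX3 and IL1A were listed with this difference known, and CCL2 and IER3 were named for their large changes. Nothing is therefore read from their positions.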

How the data were processed

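Total RNA of IGROV1Sen and IGROV1Res cells was sequenced with 3 libraries per group. The authors deposited raw read counts per Ensembl gene, already filtered for quality. The filter's rule, the aligner and the counting tool are not given in the sources used here, and the submitters' processing notes name hg18 and edgeR. A further deposited table gives the authors' own comparison (log2 fold change, mean log2 CPM, a likelihood ratio score and p-values), and only its gene symbols and identifiers were used. All 6 columns of counts were matched to samples.

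Symbols came from that table and GENCODE release 29, which also gave the GRCh38 gene coordinates. The analysis ran in R 4.3.3 and edgeR 4.0.16. Of 14646 genes, filterByExpr (minimum count 10, minimum total 15) kept 13791. After TMM scaling, glmQLFit and glmQLFTest (edgeR's quasi-likelihood test) compared the groups, with calls at an adjusted p (Benjamini-Hochberg) under 0.05. Each SE was derived from the log2 fold change and its F statistic, CPM use TMM-scaled sizes, and values after ± are SDs of 3 libraries. Ratios of counts of 1 to 3 carry 95% counting intervals. Motifs were searched with Python 3.11.15.

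The members and lists were chosen with earlier results of these data known. Named genes were the members, a fixed set of pathway genes, up to 3 called genes per direction and list with the largest change, at least 1 CPM and no overlap, and the 5 nearest profiles of IL1A and PTX3. Neighbors within 500 kb and other names were chosen after values were seen. Alternatives (19 settings) covered edgeR's likelihood ratio test, DESeq2 1.42.0, other scalings, filters and thresholds, a replicate block, left-out or summed libraries and the removal of mitochondrially encoded genes. Only the main edgeR fit was tested on simulated counts. Its changed genes lay above the few counts of IL1A and PTX3 in IGROV1Sen, and the other steps were not simulated.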

Additional observations from a re-analysis of the deposited data

How the results depend on the processing

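No log2 fold change of the 7 counted genes changed sign or moved by more than the spread between replicates in 17 refits (16 for IL1A and PTX3). The ranges were 4.44 to 5.05 for IL1A, 1.12 to 1.32 for LIF, 7.14 to 8.12 for PTX3 (fitted values that depend on the small count added), -0.61 to -0.39 for NFKBIA, 0.86 to 1.02 for TNFAIP3, 0.48 to 0.69 for NFKB2 and 0.42 to 0.76 for RELB. IL1A and PTX3 drop out where 10 counts are asked of every library, which left 3 of the list called higher. RELB was also called by edgeR's likelihood ratio test, by DESeq2 and without mitochondrially encoded genes. Replicate numbers were not used as pairs, since deviations of same-numbered libraries correlated at -0.41, 0.09 and -0.37. Across numbers, IGROV1Sen replicate 1 and IGROV1Res replicate 3 correlated at 0.51. IGROV1Sen replicates 2 and 3 correlated with IGROV1Res replicate 1 at 0.32 and 0.29. Those libraries had like mitochondrial shares, and the part of that share was not tested. The remaining pairs gave -0.41, -0.11 and 0.08. With a replicate block, 1530 genes were called higher. Of the list, 0 were called lower by edgeR's quasi-likelihood test (1 at an unadjusted p under 0.05), as NFKBIA was no longer called. Without the block, 1 was called lower by edgeR's likelihood ratio test and 1 by DESeq2. The list was chosen on this difference, so nothing is read from these calls of its genes. The block also ended the calls of TNIP1, IKBKG, TRAF3, HAX1, IL1R2 and CD59. On leaving out each library, the calls ranged from 1538 to 3023 higher and 1814 to 2992 lower over all genes, from 27 to 44 and 13 to 19 in the pathway lists, and from 5 to 6 and 0 to 1 in the list of members. The lowest counts of higher calls came without IGROV1Sen replicate 3 (1538) and IGROV1Sen replicate 2 (1572), and NFKBIA was not called without IGROV1Sen replicate 3. At an adjusted p under 0.01, 1373 genes were higher and 1584 lower, with 10 lower in the pathway lists and 0 lower among the members. When the size of the log2 fold change also had to reach 1, these were 620 and 811 over all genes, 12 and 7 in the pathway lists, and 3 and 0 among the members. Of 930 log2 fold changes of single genes under an alternative, 875 stayed on their side of the threshold (or, for the members, within the replicate spread), 45 lost the call and 10 gained it. The sign differed in 2, both of RELA, which was not called (-0.05 without IGROV1Res replicate 1 and -0.00047 with upper-quartile factors). Depth limits IL1A, PTX3, CCL2 and IL36G in IGROV1Sen, where each rests on 0 to 7 counts a library. The strand setting of the counting and the drug state at harvest were not known.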

Other observations

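IGROV1Res replicate 1 had the lowest level of its group for several genes of the innate immune lists, with values chosen after they were seen. In IGROV1Res replicates 1, 2 and 3, CCL2 had 1.61, 4.20 and 5.04 CPM, PSMB9 had 5.77, 12.7 and 14.99 CPM, CFI had 9.35, 19.8 and 18.8 CPM and TNF had 2.05, 5.88 and 4.48 CPM. PTX3 had the same order of replicate 1 below the others, at 3.80, 14.2 and 17.1 CPM. IL6R went the other way, with 24.4, 14.4 and 12.7 CPM, and IL6 had its highest count, 12, in replicate 1. IL1A, at 12.5, 10.6 and 7.85 CPM, was also highest in replicate 1. This library had the largest share of mitochondrially encoded counts of its group (12.8%), and the part of that share in these values was not tested.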
